A study of Mus musculus with 18 samples.

Results

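Tdo2 and the enzymes that carry tryptophan along the kynurenine pathway were followed in MC38 cells, a line derived from a colon adenocarcinoma of C57BL6 mice. The members were the 9 genes Tdo2, Ido1, Ido2, Afmid, Kynu, Kmo, Haao, Qprt and Aadat, taken by symbol out of 39179 genes in the deposited tables, and all 9 symbols were found. RNA sequencing libraries had been made from 6 groups of 3. The APC-deleted groups, in which the tumour suppressor gene Apc had been deleted, were untreated or had received 1 µM doxycycline for 24 h or 48 h. The APC-intact groups, which are the isogenic line, were untreated or had received the same dose for the same times. Doxycycline served to switch on an inducible short hairpin RNA against Tdo2, and the series asked what loss of TDO2 does in cells with and without APC. The titles name the hairpin for the treated libraries alone, although the protocol speaks of hairpin lines with and without doxycycline, so it is unknown here whether the untreated cells had it. Every treated group had both the drug and the hairpin, and their effects cannot be told apart. The libraries of a group are described as biological triplicates, but no separate cultures are named and it is not said whether the APC-deleted line is 1 clone. The tests therefore rest on the scatter among these libraries, part of which may be technical.

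The kynurenine pathway is the main route by which mammals break down tryptophan. TDO2, best known from the liver, and IDO1 and IDO2, dioxygenases known from immune and other tissues, all open the indole ring of tryptophan to give N-formylkynurenine, and the formamidase AFMID removes the formyl group to give kynurenine. From kynurenine the route branches. The aminotransferase AADAT makes kynurenic acid, while KMO, KYNU and HAAO lead by way of hydroxykynurenine and hydroxyanthranilic acid to quinolinic acid, which QPRT feeds into the synthesis of NAD. Kynurenine is also a ligand of the aryl hydrocarbon receptor.

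The libraries held 71970499 to 111948430 counts assigned to genes, and 15006 genes had enough counts to be tested. The deposited names hold a number that is called the run here, although no label says what it marks. Run 1 held all untreated libraries and the APC-intact 24 h libraries and run 2 held the others. Of the 4 contrasts of doxycycline with untreated cells, APC-intact 24 h is therefore the one within a run, and in the other 3 run and treatment cannot be told apart. On principal components of the log2 values 3 libraries stood apart: APC-deleted 48 h replicate 2 on the third, APC-intact 24 h replicate 1 on the fourth and APC-intact 24 h replicate 2 on the fifth. The comparisons that use them were also fitted without APC-deleted 48 h replicate 2 and APC-intact 24 h replicate 1, and without all 3, which leaves APC-intact 24 h with 1 library that is assumed to vary like the other groups. The labelled tissue was checked against its markers. Of 9 genes of colon epithelium, 6 had a median under 10 counts per library, Epcam had 2 counts over all 18 libraries and Cdx2 had 0. By contrast, Krt8, Lgals4 and Cdh1 had medians of 183, 144.5 and 111 counts per library. The summed level of the 9 was 5.18 to 7.15 CPM (counts per 1000000 gene counts) in the APC-deleted line and 3.10 to 5.36 CPM in the APC-intact line. Among fibroblast genes, Col1a1 averaged 866.7 CPM and Dcn 599.9 CPM, whereas Thy1 had 1 count. Of cells known for these enzymes, 6 of 7 hepatocyte genes had 0 to 14 counts over all libraries, Ttr 0 and Alb 4 among them, whereas Apoa2 had 788, and the leukocyte genes Ptprc had 19 and Emr1 0, while Cd68 and Cd14 averaged 14.6 and 14.8 CPM.

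The pathway was sparsely expressed, and most of its enzymes were close to undetected. All 9 members together took 6718 counts over 18 libraries, from 276 to 465 per library. Afmid, Ido2 and Tdo2 held 6564 of them, or 97.7%, and the other 6 members shared 154. Afmid had 237 to 423 counts per library, Ido2 had 9 to 41 and Tdo2 had 6 to 29, and these 3 were counted in every library. Aadat followed with 60 counts in all, Kmo with 39, Haao with 26, Qprt with 16, Ido1 with 12 and Kynu with 1. Kynu was at 0 in 17 of 18 libraries, Ido1 in 12, Qprt in 10, Haao in 5, Aadat in 3 and Kmo in 1. No enzyme between kynurenine and quinolinic acid thus had more than 39 counts in all, while Afmid, at the formamidase step, was the only member above 1 CPM.

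**Figure D1:**
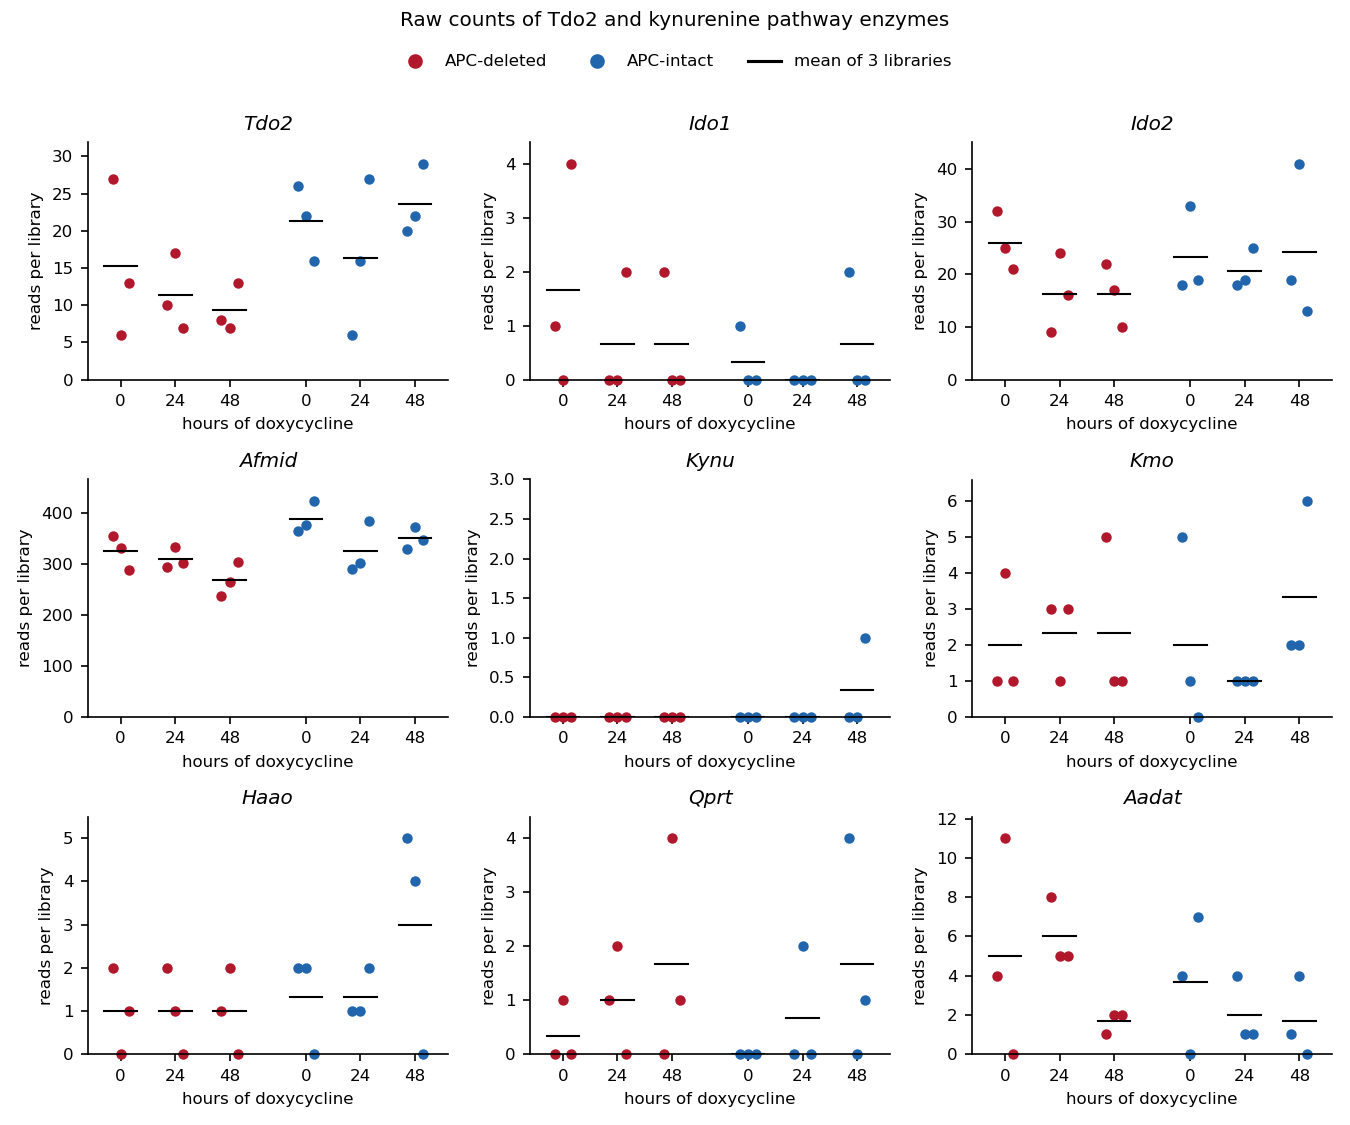
Raw counts of each member by library (points, 3 per group; bars are the group mean), with hours of doxycycline on the x axis and APC-deleted groups left of APC-intact groups. Afmid lies between 237 and 423 in every library, Tdo2 and Ido2 between 6 and 41, and the other 6 members between 0 and 11.

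Per kilobase of the deposited exon length, the order of the mean levels was Afmid (1.01 CPM per kb), Ido2 (0.0633), Tdo2 (0.0509), Aadat (0.0201), Haao (0.0131), Kmo (0.00498), Ido1 (0.00405), Qprt (0.00381) and Kynu (9.62e-05). The median tested gene had 5.77 CPM per kb. Afmid was above 27.95% of the tested genes, Ido2 above 6.32% and Tdo2 above 5.04%, so all 3 tested members lay in the lower part of the expressed range. Tdo2 and Ido2 spread more within groups than counting alone gives, with a chi-square per degree of freedom of 2.63 and 3.02 over 12 degrees of freedom, against 1.68 for Afmid. In such bulk samples, fewer expressing cells and less RNA per cell cannot be told apart.

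**Figure D2:**
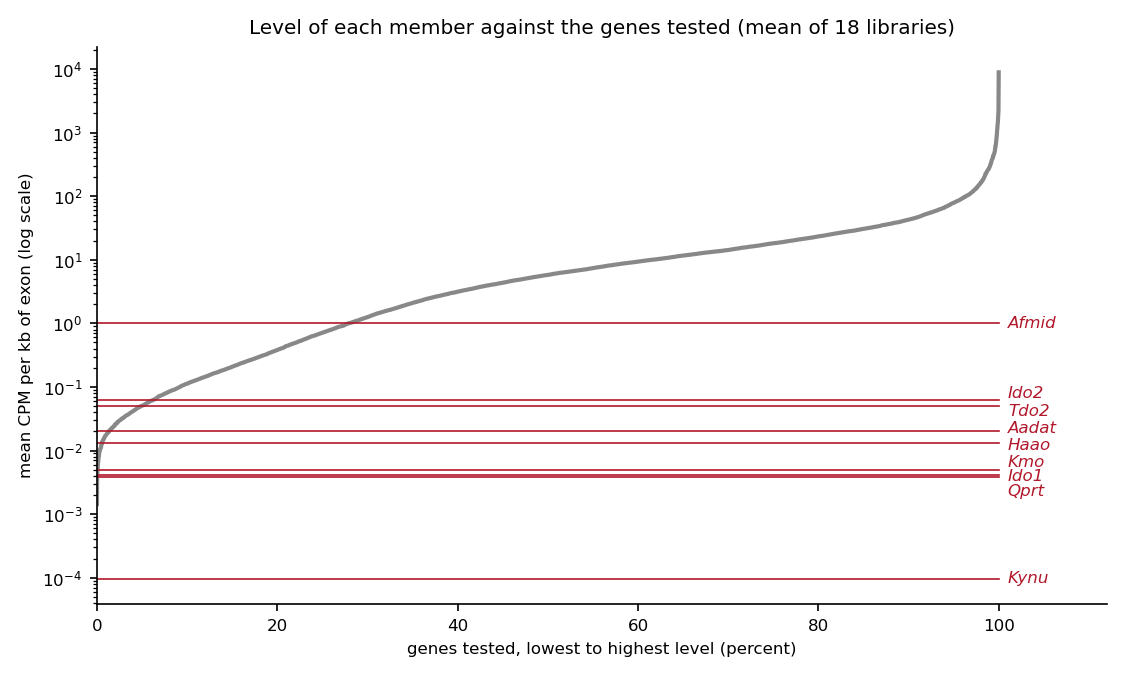
Mean level of each member (red lines) on a log scale of CPM per kb of exon, against all 15006 tested genes ordered from lowest to highest (grey curve). Afmid at 1.01 crosses the curve at 27.95%, while Ido2 at 0.0633 and Tdo2 at 0.0509 cross it near its lower end.

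RefSeq promoters, from 250 bases before to 50 after the start site on GRCm38.p6, were given for 6 of the 9 members. They are shown for the hairpin's target Tdo2, for Afmid as the most abundant member and for Aadat as the most abundant of the scarce ones, with each CG dinucleotide in capitals, since the number of CGs in a promoter went with the share of genes that were silent in these cells. The Tdo2 promoter is at chr3:81975679-81975978 on the minus strand, that of Afmid at chr11:117825669-117825968 on the plus strand and that of Aadat at chr8:60505874-60506173 on the plus strand.
Tdo2: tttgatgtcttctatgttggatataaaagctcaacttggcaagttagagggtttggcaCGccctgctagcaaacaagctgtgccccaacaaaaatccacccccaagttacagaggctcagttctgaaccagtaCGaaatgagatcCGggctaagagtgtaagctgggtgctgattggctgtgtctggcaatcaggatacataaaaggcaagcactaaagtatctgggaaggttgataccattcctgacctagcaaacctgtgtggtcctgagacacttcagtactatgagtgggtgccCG
Afmid: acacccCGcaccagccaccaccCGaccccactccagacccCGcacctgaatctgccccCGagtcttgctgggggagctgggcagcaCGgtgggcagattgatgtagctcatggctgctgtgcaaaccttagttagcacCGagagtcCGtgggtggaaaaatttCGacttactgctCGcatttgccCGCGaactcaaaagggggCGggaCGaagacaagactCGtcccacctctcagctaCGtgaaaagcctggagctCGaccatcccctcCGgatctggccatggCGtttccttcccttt
Aadat: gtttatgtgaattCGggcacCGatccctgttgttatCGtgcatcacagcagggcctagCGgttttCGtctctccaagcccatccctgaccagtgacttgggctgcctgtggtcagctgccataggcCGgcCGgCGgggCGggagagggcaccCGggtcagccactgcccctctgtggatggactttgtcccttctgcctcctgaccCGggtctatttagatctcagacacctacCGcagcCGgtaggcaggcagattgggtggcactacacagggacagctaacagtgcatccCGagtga
Tdo2 had 4 CGs in these 300 bases, and 38.0% of 32851 mouse promoters had as many or fewer, while Aadat had 14 and Afmid had 18. Of the members not shown, Kmo and Qprt had 7 each and Haao had 10. Among 17455 genes with a promoter and a row in the tables, 71.6% of the 5719 with 0 to 5 CGs had under 1 count per library, against 14.8% of the 1982 with 16 to 20 CGs and 36.6% of all. Of the 1717 genes with 11 to 15 CGs, the class of Aadat, 22.8% had under 1 count per library. Aadat, with 14 CGs, had a median of 3 counts per library. Tdo2, with 4 CGs, had a higher median of 16, so Tdo2 and Aadat did not follow that order. The motif TATAAA on the sense strand was present in Tdo2 alone of the 6, its first base at position -229 from the start, and 8.32% of all promoters held it. A match of letters is a description and does not show a site in use.

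The 3 members with enough counts were tested with edgeR's quasi-likelihood test with Benjamini-Hochberg adjustment over all 15006 genes. Between the lines, averaged over the 3 conditions, 2 of the 3 were lower in APC-deleted cells, Tdo2 and Afmid, where 52.3% of all tested genes passed in either direction and 26.3% were lower. At 24 h 1 of 3 passed, against 31.2% of all genes. None of the 3 passed between the untreated lines, against 27.3%, or at 48 h, against 34.7%. None of the 3 passed for doxycycline against untreated: not in APC-deleted cells after 24 h (5.85% of all genes) or 48 h (11.0%), nor in APC-intact cells after 24 h (5.64%) or 48 h (11.3%), nor on the mean of these 4 contrasts (26.0%). No difference of responses between the lines passed for any of the 3, against 0.00666% of all genes at 24 h and 0.0267% at 48 h. On the mean of 3 conditions 52.3% of all genes differed between the lines, so 2 of 3 is near the background and says nothing particular to the pathway.

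**Figure D3:**
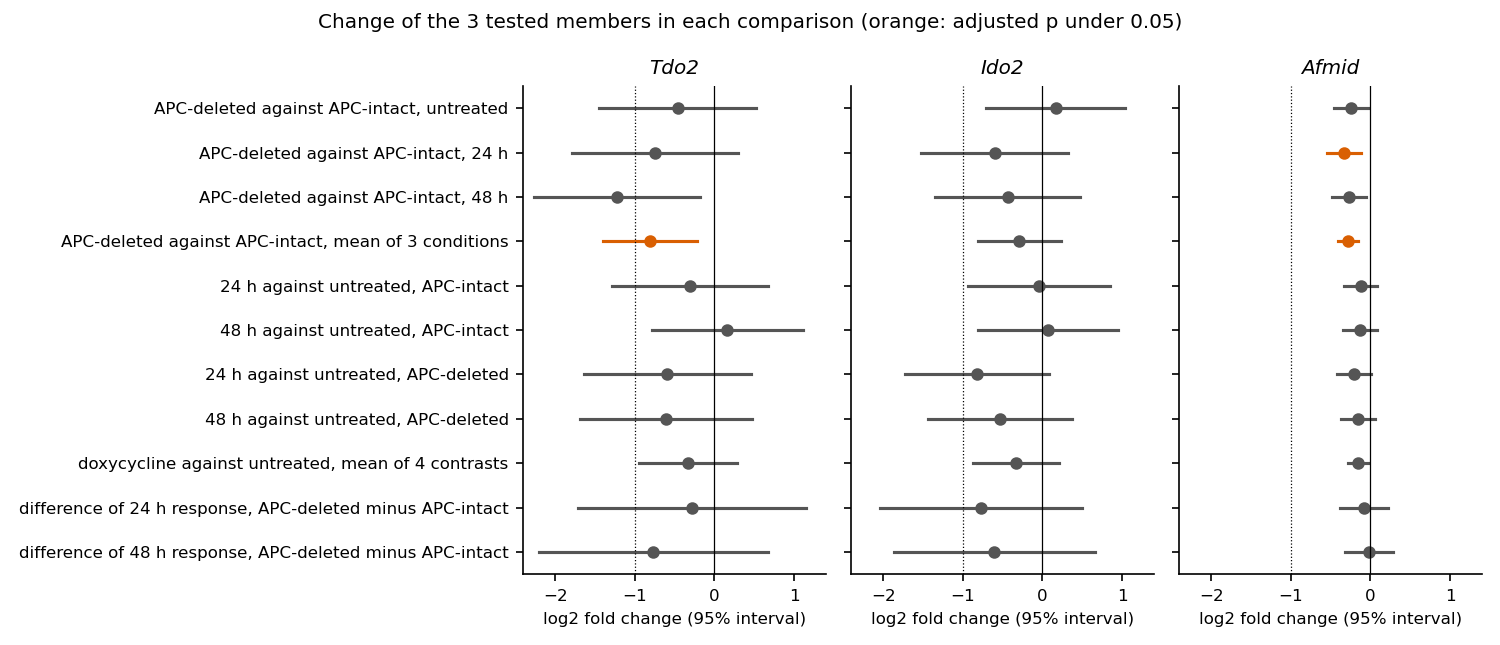
Log2 fold change with its 95% interval (edgeR) for Tdo2, Ido2 and Afmid in the 11 comparisons; orange marks an adjusted p under 0.05, the solid line no change and the dotted line -1 on the log2 scale. Orange points are the mean of 3 conditions for Tdo2 (-0.81) and Afmid (-0.28) and the 24 h line comparison for Afmid (-0.33), and the Tdo2 intervals are several times wider than those of Afmid.

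Tdo2 (ENSMUSG00000028011), which lies on the minus strand of chromosome 3 (mm10, 81957090 to 81975750) with an exon length of 3417 bases, is the gene the hairpin targets, so its counts are the check on the knockdown. In APC-deleted cells it had 27, 6 and 13 counts untreated, 10, 17 and 7 at 24 h, and 8, 7 and 13 at 48 h. In APC-intact cells it had 26, 22 and 16 counts untreated, 6, 16 and 27 at 24 h, and 20, 22 and 29 at 48 h. Treated and untreated libraries overlapped in both lines, and the APC-intact libraries at 48 h were no lower than untreated ones. Pooled over both lines, the level was 0.162 ± 0.0799 CPM with doxycycline (SD, n = 12) and 0.197 ± 0.0892 CPM untreated (SD, n = 6). On the mean of the 4 contrasts the fold was 0.792 with a 95% interval of 0.518 to 1.21 (edgeR, adjusted p = 0.433). A fall of Tdo2 mRNA under doxycycline was therefore not detectable at this depth, and the estimate rested on 1 library: without APC-deleted untreated replicate 1, which had 27 counts, the mean log2 change was 0.00. Without single libraries in turn, the lower bound of the fold ran from 0.461 to 0.701, so a fold of 0.5 lay inside the interval for some of these sets and outside it for others. The change was -0.60 in APC-deleted cells alone and -0.07 in APC-intact cells alone (adjusted p = 0.410 and 0.935), and the difference of responses between the lines was -0.29 ± 0.684 (SE) at 24 h and -0.77 ± 0.686 at 48 h (adjusted p = 1 and 0.880). Fitted without the filter on low counts, the 95% intervals of the log2 change in APC-deleted cells were -1.58 to 0.39 at 24 h and -1.64 to 0.38 at 48 h. In APC-intact cells they were -1.24 to 0.62 at 24 h and -0.75 to 1.05 at 48 h. A fold of 0.5, or -1 on the log2 scale, lay inside all of these but the last. Counts per whole gene do not check the protein.

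On the mean of 3 conditions, Tdo2 was lower in the APC-deleted line. This mean includes the 24 h and 48 h groups, which had doxycycline and the hairpin against Tdo2. At those times a difference of lines cannot be told apart from a difference in the response to treatment. The untreated pair alone did not pass. Tdo2 took 108 counts over 9 APC-deleted libraries and 184 over 9 APC-intact libraries. Its level was 0.127 ± 0.0693 CPM in the APC-deleted line, against 0.221 ± 0.0678 CPM in the APC-intact line (SD, n = 9 each), a log2 difference on the mean of 3 conditions of -0.81 ± 0.283 (SE), or a fold of 0.571 with an interval of 0.379 to 0.860 (edgeR, adjusted p = 0.0214). Single libraries of the lines overlapped widely, from 0.0623 to 0.291 CPM with Apc deleted and from 0.0813 to 0.308 CPM with Apc intact. By condition the difference was -0.46 untreated, -0.74 at 24 h and -1.23 at 48 h (edgeR, adjusted p = 0.529, 0.286 and 0.0628). Over the alternatives the untreated difference ran from -1.13 to -0.05. The 48 h ranges did not overlap, at 0.0907 to 0.139 CPM in APC-deleted libraries and 0.226 to 0.308 CPM in APC-intact libraries. The share of all genes without overlap was not counted. From lowest to highest the group means were 0.107 CPM in APC-deleted 48 h, 0.108 in APC-deleted 24 h, 0.166 in APC-deleted untreated, 0.180 in APC-intact 24 h, 0.228 in APC-intact untreated and 0.254 in APC-intact 48 h. The ranges of all neighbours in that order overlapped. The mean difference was -0.68 without APC-intact 24 h replicate 3 (adjusted p = 0.0643) and -0.84 over the untreated and 48 h pairs, each of which lay within 1 run (adjusted p = 0.0527), so the call was lost in both. Without 2 of the libraries that stood apart it was -0.88 (adjusted p = 0.0145), and without all 3 it was -0.94 (adjusted p = 0.0137).

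Ido2 (ENSMUSG00000031549, chromosome 8 from 24531892 to 24576333, minus strand), a dioxygenase with weak activity on tryptophan, had the higher count of the 2 measurable dioxygenases. In APC-deleted cells it had 32, 25 and 21 counts untreated, 9, 24 and 16 at 24 h, and 22, 17 and 10 at 48 h. In APC-intact cells it had 18, 33 and 19 counts untreated, 18, 19 and 25 at 24 h, and 19, 41 and 13 at 48 h. Counts in the treated APC-deleted libraries reached lower than elsewhere, and at 24 h their levels lay below those of the untreated APC-deleted libraries, from 0.0902 to 0.215 CPM against 0.233 to 0.345 CPM. That change was -0.82 ± 0.432 (SE) and did not pass (edgeR, adjusted p = 0.307), and the share of all genes without overlap was not counted. Averaged over conditions, Ido2 was at 0.210 ± 0.0790 CPM in the APC-deleted line and 0.249 ± 0.0879 CPM in the APC-intact line (SD, n = 9 each), a fold of 0.817 with an interval of 0.570 to 1.17 (adjusted p = 0.349). Doxycycline against untreated gave a fold of 0.793 with an interval of 0.545 to 1.15 (adjusted p = 0.371). Group means ran from 0.157 CPM in APC-deleted 24 h and 0.193 in APC-deleted 48 h through 0.240, 0.248 and 0.260 in APC-intact 24 h, untreated and 48 h to 0.279 in APC-deleted untreated, and the ranges of all neighbours overlapped.

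Ido1 (ENSMUSG00000031551, chromosome 8 from 24584136 to 24597009, minus strand), the dioxygenase induced by interferon gamma and the neighbour of Ido2 in the genome, was nearly absent. It had 9 counts in APC-deleted cells, spread over 4 of 9 libraries, and 3 counts in APC-intact cells, in 2 of 9 libraries. The highest single value was 4 counts, in an untreated APC-deleted library. Per 100000000 gene counts this was 1.06 (95% exact Poisson interval 0.483 to 2.00) in the APC-deleted line and 0.369 (0.0762 to 1.08) in the APC-intact line, and the intervals, which cover counting error alone, overlap. Fitted without the filter on low counts, the difference had an adjusted p of 0.275 in edgeR.

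Afmid (ENSMUSG00000017718, chromosome 11 from 117825924 to 117839908, plus strand), the formamidase that acts on the product of all 3 dioxygenases, was the best measured member. In APC-deleted cells it had 354, 331 and 288 counts untreated, 293, 333 and 301 at 24 h, and 237, 264 and 304 at 48 h. In APC-intact cells it had 364, 376 and 423 counts untreated, 289, 301 and 384 at 24 h, and 329, 373 and 347 at 48 h. Scaled for depth, the group mean of Afmid was lower in APC-deleted cells at each condition. It was 3.48 ± 0.314 against 4.12 ± 0.218 CPM untreated and 3.01 ± 0.0889 against 3.78 ± 0.116 CPM at 24 h. At 48 h it was 3.13 ± 0.371 against 3.76 ± 0.109 CPM, the APC-deleted value first in each pair (SD, n = 3). The ranges of the lines did not overlap at any condition, but the share of all genes without overlap was not counted. The mean difference was -0.28 ± 0.0589 (SE), a fold of 0.824 with an interval of 0.757 to 0.898 (edgeR, adjusted p = 0.0005), and it kept its call without any 1 library (-0.30 to -0.24). The untreated, 24 h and 48 h differences were -0.24, -0.33 and -0.26 (adjusted p = 0.0840, 0.0187 and 0.0515), of which 24 h sets run 2 against run 1. That 24 h call was lost without APC-deleted 24 h replicate 1 (adjusted p = 0.0545), without APC-intact 24 h replicate 1 (0.0586), without the filter on low counts (0.0840) and without all 3 libraries that stood apart (0.127). The 48 h difference passed without APC-deleted 48 h replicate 2 (-0.33, adjusted p = 0.0275) and was -0.17 without APC-deleted 48 h replicate 1 (adjusted p = 0.246). Over the untreated and 48 h pairs, each within 1 run, the mean difference was -0.25 (adjusted p = 0.00709).

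Under doxycycline Afmid did not pass the test against untreated cells. The mean of the 4 contrasts was -0.15 ± 0.0620 (SE), a fold of 0.898 with an interval of 0.821 to 0.983 (edgeR, adjusted p = 0.0725). In APC-deleted cells the change was -0.21 after 24 h and -0.15 after 48 h (adjusted p = 0.263 and 0.371). In APC-intact cells it was -0.12 after 24 h, the contrast within a run, and -0.13 after 48 h (adjusted p = 0.539 and 0.422). Without APC-deleted 48 h replicate 2 the mean was -0.17 and passed (adjusted p = 0.0400), as it did without APC-deleted untreated replicate 3 (-0.18, 0.0497), without 2 of the libraries that stood apart (-0.18, 0.0327) and without all 3 (-0.18, 0.0396). Ordered from lowest to highest, the groups were APC-deleted 24 h, 48 h and untreated and then APC-intact 48 h, 24 h and untreated. The ranges of neighbours overlapped except those of the APC-intact 24 h and untreated groups, at 3.70 to 3.91 CPM and 3.97 to 4.37 CPM. Among groups that were not neighbours, APC-intact 48 h (3.69 to 3.89 CPM) did not overlap APC-intact untreated either. APC-deleted 24 h (2.94 to 3.11 CPM) did not overlap APC-deleted untreated (3.19 to 3.82 CPM), whereas APC-deleted 48 h did. The share of all genes without overlap was not counted.

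Part of the Afmid annotation is shared with other genes. In the GENCODE annotation of this build, 1649 of its 3539 exon bases (46.6%) were also exonic in another listed gene, 1566 of them in Gm20708, a gene on the same strand that reads into Afmid from upstream, and 83 in Tk1, the thymidine kinase gene on the opposite strand. Gm20708 had 3 counts in 18 libraries and Tk1 had 117638. How the counting treated reads in shared bases, and whether it used strand, is not given in the sources used here, so Afmid counts may leave out part of its reads. Tk1 moved the same way as Afmid, by -0.16 ± 0.0389 (SE) between the lines and -0.26 ± 0.0408 with doxycycline (edgeR, adjusted p = 0.00166 and 0.000101), whereas Syngr2, the gene downstream, was higher in the APC-deleted line by 0.20 ± 0.0367 (adjusted p = 0.000135). The part of Tk1 reads in the Afmid count was not tested. None of the exon bases of the other 8 members was shared with another gene.

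**Figure D4:**
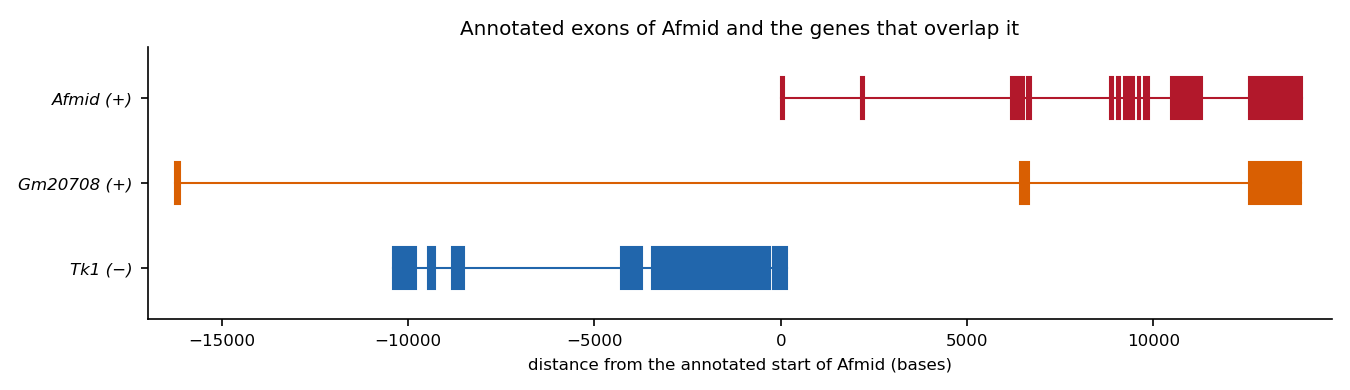
Annotated exons (boxes) of Afmid, Gm20708 and Tk1 along the distance in bases from the annotated start of Afmid, with the strand of each gene beside its name. The last exon of Afmid, 1416 bases long, coincides with the last exon of Gm20708, and the first exon of Tk1 covers that of Afmid on the opposite strand.

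The genes whose profile over the 18 libraries lay closest to that of Afmid were Xkr5, Sept9 and Zfp12, with a root mean square difference of centred log2 CPM of 0.0681, 0.0691 and 0.0693. Afmid itself deviated from its own mean by 0.178 on this measure, and the median tested gene differed from Afmid by 0.258. Tdo2 and Ido2 were too low for such a comparison.

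Beyond kynurenine, the 5 remaining enzymes left no more than 11 counts in any library. Kmo (ENSMUSG00000039783, chromosome 1 from 175620381 to 175662116), the monooxygenase that makes hydroxykynurenine and is known from microglia and macrophages, had 20 counts in the APC-deleted line and 19 in the APC-intact line. Per 100000000 gene counts its levels were 2.35 (exact Poisson interval 1.43 to 3.62) and 2.34 (1.41 to 3.65), in the same order of lines. Kmo was thus counted in 17 of 18 libraries at a few counts, with lines that could not be distinguished. Its gene overlaps Fh1 on the opposite strand, which had 90864 counts, although they share 0 exon bases. Whether reads of Fh1 entered the Kmo count was not tested.

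Kynu (ENSMUSG00000026866, chromosome 2 from 43555329 to 43682715), the kynureninase, had 1 count in the whole data set, in APC-intact 48 h replicate 3. Its 0 in the APC-deleted line allows a level of up to 0.352 per 100000000 gene counts (3 counts over 9 libraries). Haao (ENSMUSG00000000673, chromosome 17 from 83831356 to 83846790), the dioxygenase that yields the precursor of quinolinic acid, had 9 counts in the APC-deleted line and 17 in the APC-intact line, 1.06 (0.483 to 2.00) and 2.09 (1.22 to 3.35) on the same scale in that order. Its highest values, 5 and 4 counts, were in APC-intact libraries at 48 h, whose replicate 3 had 0. The Haao difference had an adjusted p of 0.562 in edgeR without the filter.

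Qprt (ENSMUSG00000030674, chromosome 7 from 127107114 to 127122226), which turns quinolinic acid into a precursor of NAD, had 15 counts in 12 doxycycline libraries and 1 count in 6 untreated libraries. The levels were 1.36 (0.762 to 2.25) with doxycycline and 0.178 (0.00450 to 0.990) untreated, per 100000000 gene counts, and 8 of the 15 counts came from a pair of 48 h libraries with 4 each. In edgeR without the filter this had an adjusted p of 0.168 and did not pass. Between the lines Qprt had 9 counts where Apc was deleted and 7 where it was intact.

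Aadat (ENSMUSG00000057228, chromosome 8 from 60506124 to 60545677), the aminotransferase of the kynurenic acid branch, was the highest of the scarce members. In APC-deleted cells it had 4, 11 and 0 counts untreated, 8, 5 and 5 at 24 h, and 1, 2 and 2 at 48 h. In APC-intact cells it had 4, 0 and 7 counts untreated, 4, 1 and 1 at 24 h, and 1, 4 and 0 at 48 h. The untreated groups thus spread from 0 to 11 counts, and the 48 h groups of both lines were at 4 counts or less. The line totals were 38 and 22 counts, or 4.46 (3.15 to 6.12) on the same scale in the APC-deleted line and 2.71 (1.70 to 4.10) in the APC-intact line, with an adjusted p of 0.578 in edgeR without the filter. Doxycycline against untreated gave 3.09 (2.14 to 4.31) and 4.62 (3.02 to 6.77), with an adjusted p of 0.536.

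Other genes of tryptophan and kynurenine handling were taken from lists of transporters, receptors and related enzymes. Of 35 genes in 6 lists, 26 were tested. Between the lines, on the mean of 3 conditions, 15 were higher and 3 lower in APC-deleted cells, against 26.0% and 26.3% of all tested genes, and their median difference was 0.18 against -0.01 for all genes. With doxycycline 3 were higher and 8 lower, against 11.2% and 14.8% of all genes, and their median was -0.06 against 0.00. Of the 8 lower, the small changes of Slc3a2, Got2, Nmnat2 and Socs1 were unstable, and Socs1 is described below with its list. Slc3a2 (-0.08, adjusted p = 0.0447) kept its call without APC-intact 24 h replicate 2 or APC-deleted 48 h replicate 2 and lost it without any other single library (adjusted p up to 0.141). Got2 (-0.08, adjusted p = 0.0265) lost its call without any 1 of 9 libraries: in APC-deleted cells untreated replicates 1 and 2, 24 h replicates 2 and 3 and 48 h replicate 3, and in APC-intact cells untreated replicate 1, 24 h replicate 3 and 48 h replicates 1 and 3 (adjusted p up to 0.0871). Nmnat2 (-0.17, adjusted p = 0.0204) lost it without untreated replicate 2 of either line (adjusted p up to 0.0620). In APC-deleted cells alone Slc3a2 and Got2 were both at -0.03 (adjusted p = 0.672 and 0.606).

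On these means, 26.0% of all tested genes were higher and 26.3% lower between the lines. With doxycycline 11.2% were higher and 14.8% lower, and these shares stand beside the counts of each list below. The other kynurenine aminotransferases were higher in 2 of 3 and lower in 0 between the lines. Ccbl2 was at 0.27 ± 0.0333 (SE) and Got2 at 0.11 ± 0.0229. At the NAD end, 2 of 4 tested genes were higher and 0 lower, both enzymes that make NAD from nicotinamide mononucleotide: Nmnat3 at 0.74 ± 0.0780 and Nmnat2 at 0.34 ± 0.0482. Nmnat3 averaged 3.38, 2.89 and 3.31 CPM over untreated, 24 h and 48 h APC-deleted groups and 2.00, 1.83 and 1.90 CPM over the APC-intact groups. Of the transporters, 2 of 4 were higher and 0 lower: Slc16a10, an exporter of aromatic amino acids (0.23 ± 0.0378), and Slc3a2, the heavy chain of the large neutral amino acid transporter (0.09 ± 0.0283), which did not pass over the untreated and 48 h pairs alone (adjusted p = 0.106). With doxycycline, 0 of 3 aminotransferases were higher and 1 lower, and 0 of 4 genes at the NAD end were higher and 1 lower. Of the 4 transporters, 0 were higher and 2 lower, Slc3a2 and Slc7a5. The Slc7a5 change ran from -0.17 to -0.14 over 26 alternatives. In the contrast within a run, 0 of the 4 transporters were higher and 0 lower.

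Ahr, the receptor for kynurenine among other ligands, was higher in APC-deleted cells by 0.40 ± 0.0403 (SE) and with doxycycline by 0.28 ± 0.0432 (edgeR, adjusted p = 6.20e-08 and 9.20e-05), although in APC-intact cells alone the doxycycline value was 0.16 (adjusted p = 0.105), and in the contrast within a run it was 0.17 (adjusted p = 0.184). Its group means were 38.1, 53.0 and 47.9 CPM over untreated, 24 h and 48 h APC-deleted groups and 32.3, 36.3 and 35.7 CPM over the APC-intact groups. The receptor Gpr35, which binds kynurenic acid, had 24 counts in 18 libraries.

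On the other routes from tryptophan, 2 of 6 tested genes were higher and 2 lower between the lines, with the monoamine oxidases Maoa (0.50 ± 0.0365) and Maob (0.44 ± 0.133) higher and Inmt, the indolethylamine methyltransferase (-0.52 ± 0.0822), lower. Maoa also passed at each condition alone, whereas Maob passed at none of them. By condition Inmt was at -0.42 untreated, -0.92 at 24 h, which sets run 2 against run 1, and -0.23 at 48 h (adjusted p = 0.0243, 8.11e-05 and 0.231). The untreated value lost its call without replicate 1 or 2 of either line (adjusted p from 0.0736 to 0.173), and over the untreated and 48 h pairs the mean was -0.33 (adjusted p = 0.0106). Tryptophanyl-tRNA synthetase Wars was at -0.09 ± 0.0312 (adjusted p = 0.0234), a call lost without any 1 of 7 libraries: replicate 3 of each APC-deleted group, replicate 1 of APC-deleted 48 h, replicates 2 and 3 of APC-intact untreated and replicate 2 of APC-intact 48 h (adjusted p from 0.0549 to 0.0812), and without the filter on low counts (0.0962). With doxycycline 1 was higher and 1 lower. Wars rose by 0.20 ± 0.0334 and Inmt fell by 1.71 ± 0.0818 on the log2 scale, the largest change among these 26 genes on this mean. In the contrast within a run, Wars was at 0.21 and Inmt at -1.59 (edgeR, adjusted p = 0.0225 and 1.43e-06).

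Of 8 genes of interferon gamma signalling and Ido1 regulation, 6 were higher and 1 lower between the lines, against 26.0% and 26.3% of all tested genes. The receptor chains Ifngr1 (0.37 ± 0.0326) and Ifngr2 (0.35 ± 0.0289), the transcription factor Irf1 (0.33 ± 0.0355) and the inhibitor Socs3 (0.38 ± 0.0329) were higher, at adjusted p from 4.65e-09 to 1.54e-07 in edgeR, and each kept its call in all 25 alternatives. The other 2 were Jak2 (0.29) and Jak1 (0.09), kinases of the receptor. Irf1 and Jak1 did not pass between the untreated lines. Over the alternatives the Irf1 difference ran from 0.26 to 0.34 at 24 h and from 0.46 to 0.61 at 48 h. At those times a difference of lines cannot be told apart from a difference in the response to treatment. The Jak1 call (adjusted p = 0.0352) was lost without any 1 of 4 libraries, APC-deleted 48 h replicate 3, APC-intact untreated replicate 2, APC-intact 24 h replicate 2 or APC-intact 48 h replicate 2 (adjusted p from 0.0526 to 0.0627), and over the untreated and 48 h pairs (0.141). With doxycycline 1 of the 8 was higher, Ifngr1 (0.21 ± 0.0348), and 3 were lower, Irf1 (-0.23 ± 0.0373) and the inhibitors Socs3 (-0.20 ± 0.0346) and Socs1 (-0.19 ± 0.0608). The Socs1 call (adjusted p = 0.0252) was lost without any 1 of 6 libraries: replicates 1 and 2 of APC-intact untreated, 2 and 3 of APC-deleted untreated, and 2 and 3 of APC-deleted 24 h (adjusted p from 0.0521 to 0.0673). In the contrast within a run, Irf1 was at -0.32 and Socs3 at -0.26 (adjusted p = 0.00325 and 0.00923), while Ifngr1 was at 0.12 and Socs1 at -0.00 (adjusted p = 0.269 and 0.991). Taken in 1 line alone, Ifngr1 was at 0.08 and Socs1 at -0.11 in APC-intact cells, and Irf1 and Socs3 were at -0.10 and -0.11 in APC-deleted cells (adjusted p = 0.312, 0.475, 0.258 and 0.161), and whether the lines differed in this was not tested on the mean of times. Ido1 itself had 6 counts in doxycycline and 6 in untreated libraries, so its own response could not be read beside theirs.

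**Figure D5:**
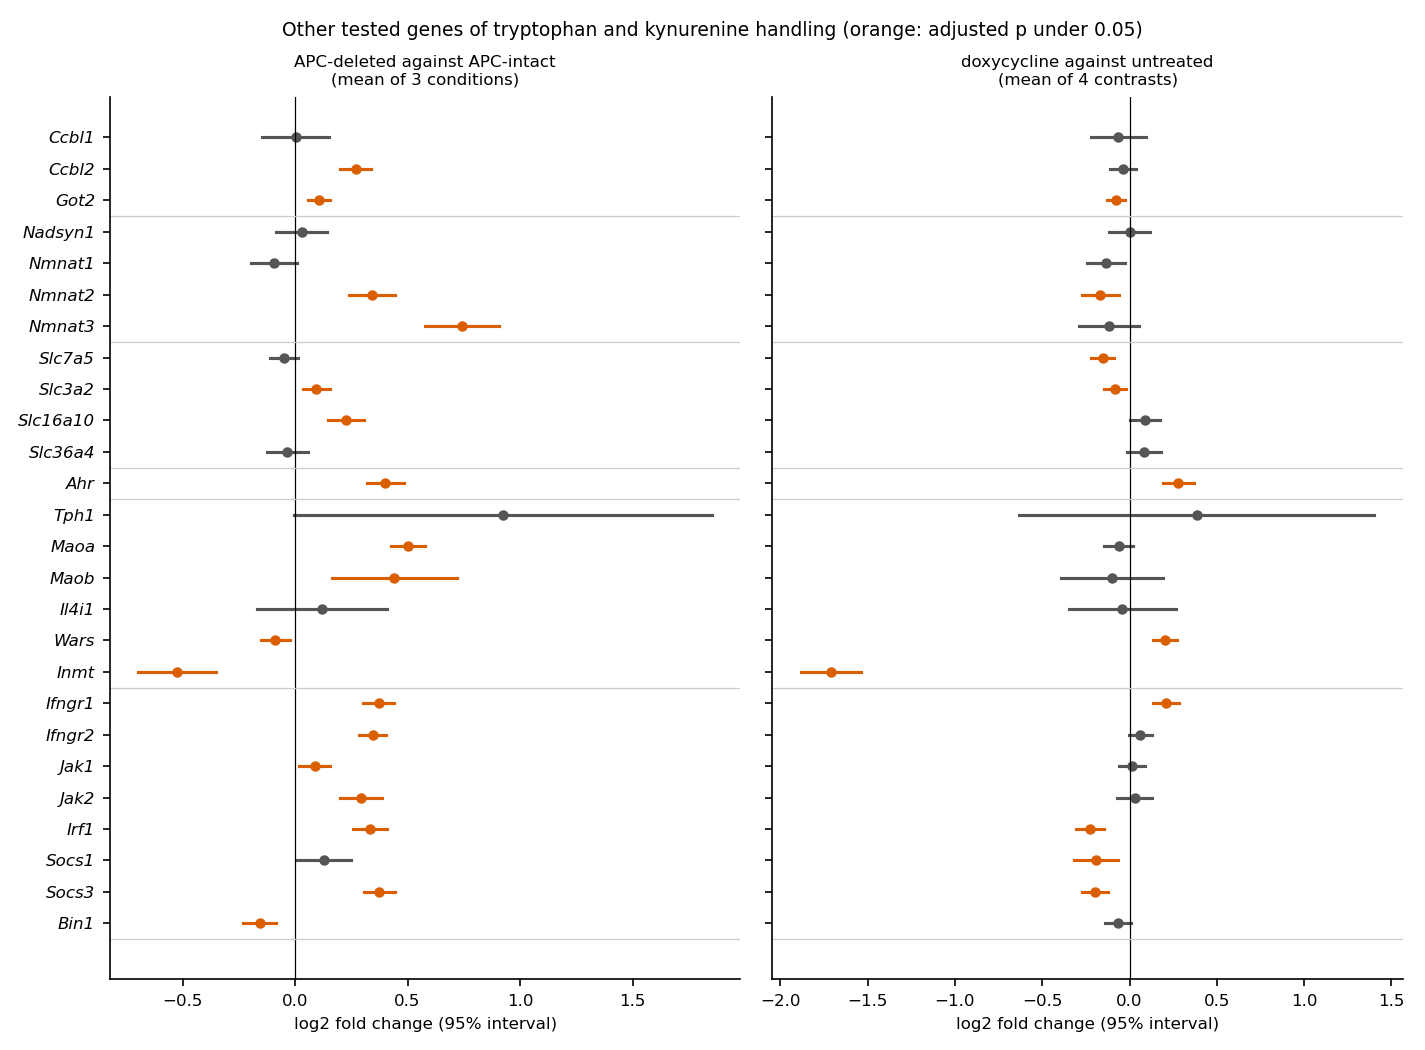
Log2 fold change with its 95% interval (edgeR) of the 26 other tested genes of tryptophan and kynurenine handling, between the lines (left) and with doxycycline (right), grouped by list with grey rules between lists; orange marks an adjusted p under 0.05. On the left 15 genes are higher and 3 lower in orange, and on the right Inmt at -1.71 lies apart from the rest.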

How the data were processed

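The authors deposited, for each of the 18 libraries, whole-number counts per gene and an RPKM column, made with STAR and HTSeq on mm10 per the submitters' processing notes; versions, strandedness and annotation release are not given in the sources used here. The deposited RPKM equalled counts per kilobase, scaled to the total of all entries, and was not used in tests. Rows without a gene, which held 22.9 to 25.5% of the counts, were left out of library sizes. The test was the quasi-likelihood F test of edgeR 4.0.16 (R 4.3.3), with TMM factors, filterByExpr by group, robust glmQLFit and 1 coefficient for each of the 6 groups, in 11 comparisons, with Benjamini-Hochberg adjustment over 15006 genes and a threshold of 0.05. The common biological coefficient of variation was 8.33%, against 32.3% for Tdo2, 29.9% for Ido2 and 8.32% for Afmid. The 6 members under the filter were described by raw counts with 95% exact Poisson intervals, which cover counting error only, and by the fit without a filter. CPM used TMM factors, and log2 CPM used a prior count of 2. The fit was tried on simulated counts for APC-intact 24 h against untreated. The genes changed there had more counts than any member but Afmid, so that trial does not cover Tdo2 or Ido2. Replicates of each pair differed by more than sampling noise. The members and lists were chosen with earlier results of these data known; named list genes were the up to 4 of smallest adjusted p. A gene of these lists is not reported here and is left out of their counts. As alternatives, DESeq2 1.42.0 and its style of size factors were used, no filter, a replicate block, only the groups compared, single lines or pairs of conditions, and leaving out each library. Leaving out 2 or all 3 of the libraries that stood apart was added after seeing the data. Marker values were computed from the same counts.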

Additional observations from a re-analysis of the deposited data

How the results depend on the processing

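Over the 11 comparisons and their alternatives, Tdo2 kept its direction and its side of the threshold in 162 values, reversed in 9, gained the call in 1 and lost it in 2; Ido2 kept both in 166 and reversed in 8; Afmid kept both in 159, reversed in 3, gained the call in 8 and lost it in 4. None of the reversed values passed the test. For Tdo2 the log2 change at 24 h in APC-intact cells was 0.02 without 2 of the libraries that stood apart and 0.20 without all 3. For Ido2 it was 0.01 there with the replicate block, and 0.01 for doxycycline over the APC-intact contrasts alone. Leaving out 1 library each, Tdo2 ran from -0.99 to 0.09 and from -1.01 to 0.06 at 24 and 48 h in APC-deleted cells, from -0.67 to 0.03 and from -0.04 to 0.35 in APC-intact cells, from -0.53 to 0.00 on the doxycycline mean and from -0.70 to 0.39 for the 24 h difference of responses. Ido2 ran from -0.00 to 0.50 between the untreated lines, from -0.74 to 0.13 at 48 h, and from -0.19 to 0.29 and from -0.49 to 0.40 at 24 and 48 h in APC-intact cells. Afmid ran from -0.10 to 0.06 for the 48 h difference of responses. With only the groups compared, Tdo2 passed between the lines at 48 h (-1.23, adjusted p = 0.0326), and Afmid did with DESeq2 (-0.26, adjusted p = 0.0441), without APC-deleted 48 h replicate 2 (0.0275), without 2 of the libraries that stood apart (0.0249) and without all 3 (0.0306).

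Counts over all genes moved by more than 1.5 times as follows. With only the groups compared they were 2473 against 878 at 24 h and 433 against 1653 at 48 h in APC-deleted cells, 258 against 846 and 4367 against 1703 in APC-intact cells, and 0 against 4 for the 48 h difference. DESeq2 gave 1388 at 24 h in APC-deleted cells, 5 against 1 for the 24 h difference and 57 for the 48 h difference, where no filter gave 14. Without 2 of the libraries that stood apart the count was 3009 at 48 h in APC-deleted cells and 2 for the 48 h difference. Without all 3 it was 4362 there, 2212 at 24 h in APC-intact cells, 6466 for the doxycycline mean, and 4 and 34 for the 24 h and 48 h differences. The doxycycline mean gave 1807 over the APC-deleted contrasts and 1736 over the APC-intact ones, against 3896. Leaving out 1 library gave 428 to 533 and 882 to 2816 in APC-deleted cells at 24 and 48 h, 364 to 1259 and 822 to 1409 in APC-intact cells, 1 to 2 for the 24 h difference and 0 to 3 for the 48 h difference. The cause of these moves was not tested.

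Libraries with the same replicate number deviated together only weakly (median correlation 0.0203 over 45 pairs, 4 of them above 0.1, the highest 0.237). Libraries with different numbers had a median of -0.0156 over 90 pairs, 2 of them above 0.1 and the highest 0.103. The numbers were therefore not taken as pairs. The replicate block gave 8019 genes between the lines and 4178 for doxycycline against 7846 and 3896 without it, and Tdo2 between the lines at -0.81 (adjusted p = 0.0277). Depth is a limit: Tdo2 and Ido2 rest on 6 to 41 counts per library and the other 6 members but Afmid on 11 or fewer, so absence of a call does not show absence of a change.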
